A study of Mus musculus with 6 samples.

Results

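The subject is the effect of losing Foxo1 on the transcripts of regulatory T cells (Treg cells), measured on 4 oligonucleotide arrays out of the 6 in the series. The arrays were chosen by their titles: 2 hold wild-type cells (WT) and 2 hold cells of Foxo1 knockout mice (Foxo1KO), and 45101 probe sets were read on each. Cells of all 4 arrays came from mice of the strain C57BL/6 and were sorted by FACS as Treg cells, with no treatment given in the labels. The other 2 arrays carry a constitutively active Foxo1 and do not enter the comparison. The promoter that drives the deletion, the deleted part of Foxo1, the sorting gates, and the ages and sexes of the mice are not given in the sources used here, nor is the number of mice behind each array. The labels do not call the replicates separate mice, so p-values below measure the spread between these arrays. The study asked which genes differ between the genotypes.

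Foxo1 is a forkhead transcription factor. In resting T cells it sits in the nucleus and keeps on genes of survival and of circulation through lymph nodes, such as those of the IL-7 receptor, the homing receptor Ccr7 and the transcription factor Klf2. When the T cell receptor, CD28 or cytokine receptors activate PI3K and Akt, Akt phosphorylates Foxo1, and the protein leaves the nucleus. Treg cells are CD4 T cells that carry the transcription factor Foxp3 and restrain other immune cells. They range from circulating, naive-like cells to effector cells in tissues.

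All values are on the log2 scale, so a difference of 1 is a 2-fold change, and the values of a gene are given for replicate 1 and then replicate 2. Differences are Foxo1KO minus WT from limma, with the standard error (SE) and a p-value adjusted by the Benjamini-Hochberg method over 13645 tested genes. A gene is called, and said to rise or fall, at an adjusted p under 0.05. Each gene is read on its brightest probe set. The dimmest tested genes have a mean of 5.53, and where the lower group's level reaches below that floor the fold is given as "at least", since array signals flatten near background. Levels of different genes are not compared, because each probe set has its own response. In bulk RNA of this kind, fewer cells of a type and less RNA per cell cannot be told apart.

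Replicate arrays agreed closely, with a correlation of 0.9965 between the WT arrays and 0.9962 between the Foxo1KO arrays across probe sets, against 0.9841 to 0.9853 between the groups. Replicates of WT lay 0.10 apart for the median gene, and those of Foxo1KO 0.11. The Y-linked gene Eif2s3y was low on replicate 1 of WT (3.91) and of Foxo1KO (4.05), and high on replicate 2 of WT (10.09) and of Foxo1KO (9.91). The X-linked RNA Xist was higher on replicate 1 but bright on both, at 13.43 and 12.03 in WT and 13.14 and 12.59 in Foxo1KO. Replicate 2 of each group thus read high for both genes, and replicate 1 for Xist alone. Whether replicate 2 held cells of both sexes was not tested. The 2 replicates of each group differed in these genes, and the groups did not. The Treg label was borne by bright signals of the IL-2 receptor chain Il2ra (11.37 and 11.42 in WT, 11.18 and 11.48 in Foxo1KO), the Helios gene Ikzf2 (13.53 and 13.56 against 13.57 and 13.63) and Tnfrsf18 (12.19 and 12.18 against 12.42 and 12.56). Foxp3 itself has 1 dim probe set here (5.25 and 5.43 in WT, 5.54 and 5.58 in Foxo1KO), which fell below the filter on low values and gives no view of Foxp3.

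The targeted gene was still read on the Foxo1KO arrays, at a lower level. The brightest of its 4 probe sets gave 11.03 and 11.35 in WT and 10.87 and 10.65 in Foxo1KO, a 1.35-fold fall (log2 -0.43, SE 0.13, adjusted p = 0.042). Of the other 3 probe sets, tested among all 45037 probe sets that are not controls, Foxo1 was lower on a second probe set (10.09 and 10.42 in WT, 9.81 and 9.73 in Foxo1KO, adjusted p = 0.034) and on another (9.60 and 9.93 in WT, 9.27 and 9.18 in Foxo1KO, adjusted p = 0.023). The last read 4.75 and 4.81 in WT and 4.89 and 4.85 in Foxo1KO, near background. On the 3 bright probe sets both Foxo1KO arrays lay below both WT arrays. The call of Foxo1 in the gene fit ended without WT replicate 2 (log2 -0.27, adjusted p = 0.23), Foxo1KO replicate 1 (adjusted p = 0.06) or Foxo1KO replicate 2 (adjusted p = 0.22), and over the alternatives its adjusted p ranged from 0.0079 to 0.23. A probe set outside the deleted part does not report the deletion, so these values do not say how complete it was. The related genes Foxo3 (difference 0.02, SE 0.11, adjusted p = 0.93) and Foxo4 (-0.06, SE 0.11, adjusted p = 0.78) were not called.

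Losing Foxo1 went with a wide change. Of 13645 tested genes 2974 were called, 21.8% of all, with 1528 higher (11.2%) and 1446 lower (10.6%) in Foxo1KO. Counts of called members in the gene lists below stand beside these shares. Most calls were small: 1605 were under 1.5-fold, and 580 reached 2-fold, of which 375 were higher (2.75%) and 205 lower (1.5%). The higher side had the longer tail, with 56 genes against 23 past 4-fold and 21 against 5 past 8-fold. Among bright genes, with both group means at 9 or above, the numbers of higher and lower calls were close (541 and 571), while 84 rose and 57 fell at least 2-fold. Every one of the 2974 called genes had both Foxo1KO values on the same side of both WT values. That alone is a weak criterion, since 8209 genes (60.2%) met it, 32.9% upward and 27.3% downward. Of the 580 calls of at least 2-fold, 577 remained when any 1 of the 4 arrays was left out, against 1567 of all 2974. An exact permutation test was not used, since with 2 arrays a side its smallest p is 0.333.

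**Figure D1:**
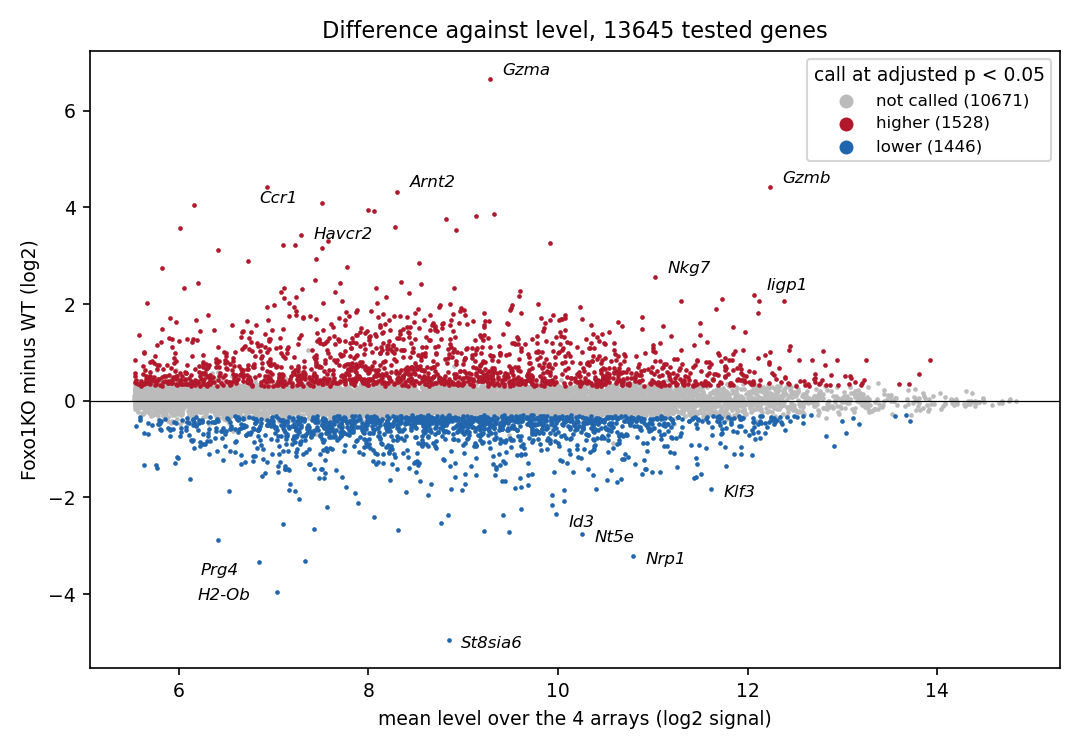
Difference between Foxo1KO and WT (y axis, log2) against the mean level over the 4 arrays (x axis, log2 signal), with 1 point per tested gene, red where called higher, blue where called lower and grey where not called. Gzma at 6.66 and St8sia6 at -4.95 stand farthest from 0, and red points past 2 outnumber blue points past -2 at most levels.

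The largest rises were those of granzyme genes, followed by genes of varied function. Gzma, the serine protease granzyme A of killer cell granules, went from 5.92 and 5.98 in WT to 12.73 and 12.49 in Foxo1KO, a 101-fold rise (log2 6.66, SE 0.11, adjusted p = 7.6e-09). Arnt2, a bHLH-PAS transcription factor, went from 6.50 and 5.78 to 10.37 and 10.56 (20.1-fold, log2 4.33, SE 0.20). Anxa1, the annexin A1 gene, went from 7.76 and 7.02 to 11.06 and 11.44 (14.5-fold, log2 3.86, SE 0.22), with the WT arrays farther apart than the Foxo1KO arrays. Tgm2, the transglutaminase 2 gene, went from 6.31 and 6.64 to 10.04 and 10.11 (log2 3.60). Atp8b4, a lipid flippase, Slc15a3, a lysosomal peptide transporter, and Sv2c, a synaptic vesicle protein, rose by 3.94, 3.31 and 3.16. Ctla2a, a protease inhibitor related to a cathepsin propeptide, went from 8.82 and 7.74 to 11.37 and 11.73 (log2 3.27, a call lost with an intensity trend and a robust prior together), and 1500009L16Rik from 7.69 and 6.63 to 10.67 and 10.70 (log2 3.52), both with WT replicates over 1 log2 apart. Gm4951 rose by 3.23 and the bright glutaredoxin gene Glrx by 2.11. Plac8, a lysosomal protein, differed mainly on Foxo1KO replicate 1 (8.17 and 8.61 in WT, 9.96 and 8.83 in Foxo1KO, log2 1.00), and its call ended without WT replicate 1 or without Foxo1KO replicate 1 (log2 0.43). Ermn (at least 12.2-fold) and Fabp4 (at least 4.82-fold), a fatty acid binding protein, were below the floor in WT.

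On the lower side a sialyltransferase changed most. St8sia6, which adds sialic acid to sialylated glycans, went from 11.13 and 11.50 in WT to 6.46 and 6.28 in Foxo1KO, a 30.8-fold fall (log2 -4.95, SE 0.13, adjusted p = 1.3e-07). Nrp1, the neuropilin 1 gene and a surface marker of Treg cells of thymic origin, went from 12.45 and 12.34 to 9.30 and 9.07 (9.28-fold lower, log2 -3.21, SE 0.11). Mtss1, an actin and membrane binding protein, fell by 2.53, while Lrig1, a brake on growth factor receptors, fell by 2.36 and Gsta4, a glutathione transferase, fell by 2.69. Ms4a6c, a membrane protein, went from 10.78 and 10.91 to 8.34 and 7.92 (log2 -2.71), Cyria, an actin regulator, from 8.70 and 8.81 to 6.42 and 5.76 (log2 -2.66), and Sh3bgrl2 from 9.21 and 9.31 to 6.77 and 6.93 (log2 -2.41). The uncharacterised 1110032F04Rik fell by 2.35, the ubiquitin ligase Neurl3 fell by 2.19, and the receptor Gpr34 was at least 5-fold lower (7.90 and 7.81 in WT, 5.09 and 4.86 in Foxo1KO). Prg4, the lubricin gene, fell at least 7.93-fold and Btbd11 at least 9.25-fold. Among bright genes the nuclear factor Aff3 (from 11.03 and 11.17 to 9.02 and 9.01, log2 -2.08) and the cardiolipin acyltransferase gene Lclat1 (from 11.38 and 11.24 to 9.51 and 9.47, log2 -1.82) were, like Nrp1, among the 10 largest falls. In each of these genes the replicates of a group lay far closer together than the groups did.

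**Figure D2:**
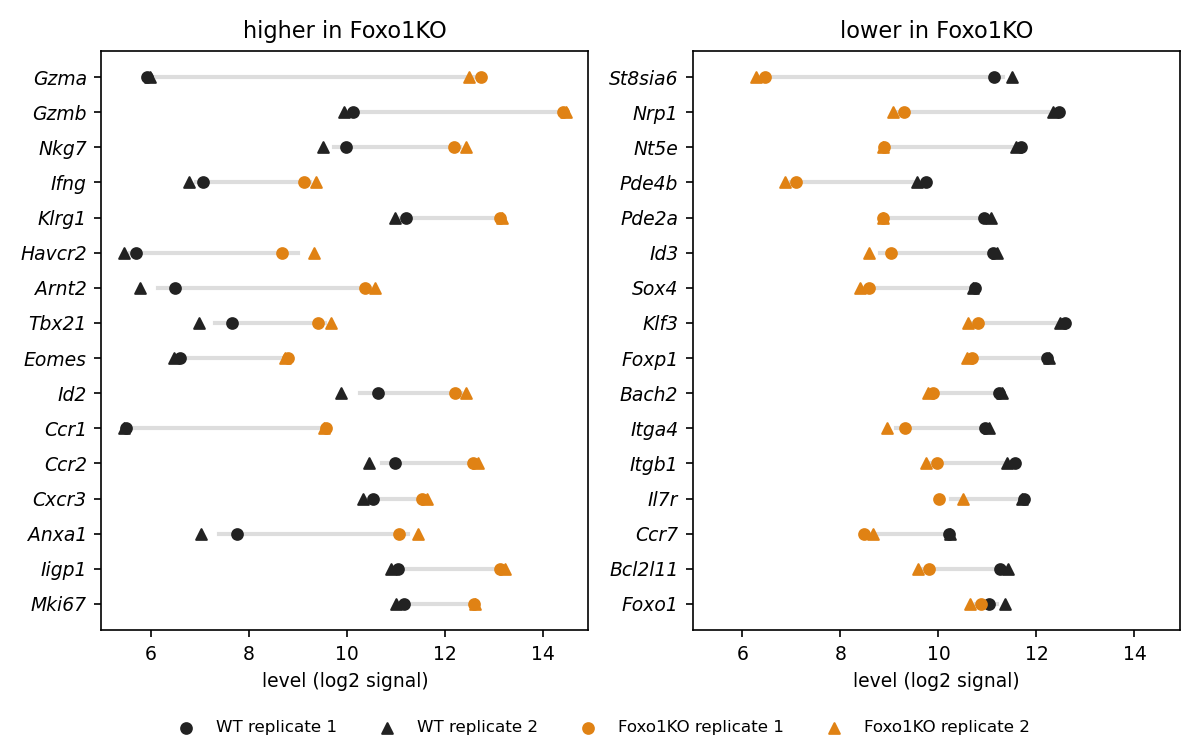
Level on each of the 4 arrays (x axis, log2 signal) for 16 genes higher and 16 genes lower in Foxo1KO, with WT in black, Foxo1KO in orange, circles for replicate 1, triangles for replicate 2, and grey lines joining the group means. The groups do not overlap for any of these genes; the gap is narrowest for Foxo1 itself, from 11.03 (WT replicate 1) to 10.87 (Foxo1KO replicate 1).

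Known targets of Foxo factors moved in both directions. Of 39 listed genes 38 had a probe set and 37 passed the filter, and of these 13 fell, 7 rose and 17 were not called, with a median of -0.16 against 0.03 over all tested genes. The 54.1% called compares with 21.8% of all genes. Il7r, the IL-7 receptor chain through which T cells receive a survival signal, went from 11.74 and 11.71 in WT to 10.003 and 10.50 in Foxo1KO (log2 -1.47, SE 0.15, adjusted p = 0.00013). Bcl2l11, the gene of the death-promoting protein Bim, went from 11.26 and 11.41 to 9.80 and 9.58 (log2 -1.64, SE 0.11, adjusted p = 1.6e-05). Tob1, an antiproliferative factor, fell by 1.40 and Sesn1, a stress sensor that restrains mTORC1, by 1.46. The muscle atrophy ubiquitin ligase Fbxo32 fell by 0.93 and the PI3K inhibitor Pik3ip1 by 0.79. The targets that rose include genes of growth arrest and death: the CDK inhibitor Cdkn1a (from 7.38 and 7.38 to 8.69 and 8.58, log2 1.25, SE 0.10), the pocket protein Rbl2 (0.92), the stress genes Gadd45b (0.92) and Bnip3 (0.73), and Fasl, the Fas ligand (1.52). In Il7r and Cdkn1a alike the groups were separated by more than the replicates of either. Smaller falls were called for the insulin receptor Insr (-0.73), the stress sensor Sesn3 (-0.52), the co-regulator Cited2 (-0.51) and the mTORC2 subunit Rictor (-0.48). The mTORC1 inhibitor Ddit4 (0.96) and the death ligand Tnfsf10 (0.33) were called higher. The call of Insr ended with its probe sets averaged, that of Sesn3 without Foxo1KO replicate 1, that of Rictor without WT replicate 1 or Foxo1KO replicate 1, and that of Tnfsf10 without any 1 of the 4 arrays. That of Ddit4 ended without Foxo1KO replicate 2, where its difference was 0.63. Ccng2, Trib1, Pink1, Gabarapl1, Sesn2, Cat, Klf6, Sod2, Txnip, Btg1, Klf4, Irs2 and Gadd45a were not called, with differences from -0.29 (Gadd45a) to 0.15 (Ccng2).

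Several parts of the PI3K and Akt pathway, which acts upstream of Foxo1, also differed. Of 34 tested members 10 fell and 6 rose, 47.1% in all, with a median of -0.10. Pik3r5, an adaptor subunit of the G protein-coupled PI3K, went from 8.24 and 8.31 in WT to 6.80 and 6.56 in Foxo1KO (log2 -1.59, SE 0.11), and Trib2, a pseudokinase that binds Akt regulators, from 12.26 and 12.22 to 10.71 and 10.63 (log2 -1.57, SE 0.09). The phosphatases Inpp4b (-0.91) and Phlpp1 (-0.80), which oppose PI3K and Akt, were lower. Sgk1, a kinase activated downstream of PI3K that can phosphorylate Foxo factors, went from 9.85 and 9.28 to 11.04 and 11.23 (log2 1.57, SE 0.17, adjusted p = 0.00019), and Eif4ebp1, the translation repressor controlled by mTORC1, rose by 0.79. Pik3ca, Akt2 and Mtor, the kinases themselves, differed by 0.15, -0.07 and -0.13 and were not called.

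Genes of homing to lymph nodes and of exit from tissues were called in both directions. Of 18 tested members 6 fell and 4 rose (55.6% called, beside 21.8% of all genes), with a median of -0.11. Ccr7, which brings T cells into lymph nodes, went from 10.22 and 10.24 in WT to 8.48 and 8.67 in Foxo1KO (log2 -1.66, SE 0.10, adjusted p = 9.3e-06). S1pr1, the receptor that lets lymphocytes leave lymph nodes, went from 10.68 and 10.99 to 10.16 and 10.04 (log2 -0.74, SE 0.12, adjusted p = 0.0022), and Klf2, the factor that drives S1pr1, from 11.996 and 12.12 to 11.22 and 11.54 (log2 -0.68, SE 0.12). Klf3, a repressor of the same family, showed a larger fall, from 12.58 and 12.48 to 10.81 and 10.61 (log2 -1.82, SE 0.11, adjusted p = 7.6e-06). Gpr183, an oxysterol receptor that positions lymphocytes within lymphoid tissue, rose by 0.99. The chemokine receptor Cxcr4 was higher as well (9.09 and 8.19 in WT, 9.38 and 9.84 in Foxo1KO, log2 0.97, adjusted p = 0.024), but its call ended without Foxo1KO replicate 2 or with a robust prior, and its difference was 0.53 without WT replicate 2. The gut homing receptor chains Ccr9 and Itgb7 were called higher by 0.395 each, but the call of Ccr9 ended without any 1 of the 4 arrays and with its probe sets averaged (log2 0.10), and that of Itgb7 without WT replicate 1 or either Foxo1KO array. S1pr4, Selplg, Itgal, Cxcr5, Spns2, P2ry10, Cd69 and Ccr4 differed by -0.18, -0.03, 0.10, 0.29, 0.20, -0.02, -0.24 and -0.31 and were not called.

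Receptors for inflammatory chemokines were mostly higher. Of 12 tested members 8 rose, 1 fell and 3 were not called (75% called, beside 21.8% of all genes), with a median of 0.69. With no filter 8 of 14 rose and 1 fell, with a median of 0.43. Ccr1, a receptor of myeloid and effector cells, lay below the floor in WT (5.49 and 5.44) and at 9.56 and 9.54 in Foxo1KO, at least 16.2-fold higher (adjusted p = 5.9e-08). Ccr2 went from 10.99 and 10.45 to 12.57 and 12.68 (log2 1.91, SE 0.16). Cxcr3, a receptor of Th1-type cells, went from 10.54 and 10.32 to 11.53 and 11.64 (log2 1.15, SE 0.11), Cxcr6 rose by 1.19 and the decoy-like receptor Ccrl2 by 1.28. The exception was Ccr6, a receptor of Th17-type and gut-homing cells, which went from 10.14 and 9.92 to 8.59 and 8.73 (log2 -1.37, SE 0.11). Chemokine genes themselves were called only upward by limma, with 7 of 13 higher (53.8%), 0 lower (also 0 at an unadjusted p under 0.05) and a median of 0.64. With no filter 7 of 17 were higher and 0 lower, with a median of 0.33. The 7 higher genes include the inflammatory chemokines Ccl3 (at least 2.04-fold) and Ccl5 (1.09), the lymphotactin gene Xcl1 (1.27), the Cxcr3 ligand Cxcl10 (0.99), and Ccl1 (1.14).

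Integrins split by subunit. Of 20 tested genes 5 fell and 3 rose, 40% called against 21.8% of all genes, and the 8 calls became 5 without Foxo1KO replicate 2. Itga4 and Itgb1, the chains of the integrin VLA-4 that binds VCAM-1 on vessels, fell together: Itga4 went from 10.96 and 11.03 in WT to 9.32 and 8.96 in Foxo1KO (log2 -1.85, SE 0.13, adjusted p = 1.7e-05), and Itgb1 from 11.56 and 11.39 to 9.97 and 9.74 (log2 -1.62, SE 0.12, adjusted p = 2e-05). Itga6, the laminin receptor chain, fell by 0.97, and Itgb8, which activates latent TGF beta, by 1.02 (10.57 and 10.08 in WT, 9.19 and 9.43 in Foxo1KO). Itgal and Itgb2, the chains of LFA-1, differed by 0.10 and 0.20 and were not called. Among semaphorins, plexins and neuropilins, which are guidance molecules of other families, Nrp1 was the only gene of 16 tested to fall. In that list 8 rose (56.2% called in either direction), among them Sema4a (from 9.91 and 9.59 to 10.82 and 11.07, log2 1.20) and Plxnc1 (1.02).

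Genes that break down or sense cyclic AMP and extracellular nucleotides held some of the largest falls. Nt5e, the CD73 ecto-nucleotidase that makes adenosine from AMP on the Treg surface, went from 11.68 and 11.59 in WT to 8.89 and 8.87 in Foxo1KO, a 6.78-fold fall (log2 -2.76, SE 0.09, adjusted p = 3.6e-07). Entpd1, the CD39 enzyme that makes AMP from ATP one step earlier, rose from 7.21 and 7.33 to 8.44 and 8.29 (log2 1.09, SE 0.10), and Ada, which degrades adenosine, from 7.30 and 7.40 to 8.62 and 8.74 (log2 1.33, SE 0.10). The 3 enzymes of this chain were thus called in opposite directions. Of 8 tested phosphodiesterases, which hydrolyse cyclic AMP or cyclic GMP, 3 fell and 1 rose. Pde4b went from 9.74 and 9.56 to 7.10 and 6.86 (log2 -2.67, SE 0.12), Pde2a from 10.94 and 11.08 to 8.86 and 8.86 (log2 -2.15, SE 0.10), and Pde7a from 9.21 and 9.05 to 7.73 and 7.73 (log2 -1.40, SE 0.10). Pde4d went the other way (9.49 and 9.46 in WT, 9.79 and 10.06 in Foxo1KO, log2 0.45), a call that ended without WT replicate 2, without Foxo1KO replicate 2 (0.31) or with its probe sets averaged (0.28). Pde3b, Pde8a, Pde4a and Pde1b differed by 0.30, 0.24, 0.05 and -0.17 and were not called. Crem, a cyclic AMP responsive repressor, rose by 0.76, while the prostaglandin E2 receptor Ptger2 fell by 1.57 (9.88 and 9.51 in WT, 8.03 and 8.23 in Foxo1KO). Over the whole list of 31 tested genes 8 fell and 6 rose (45.2% called, beside 21.8% of all genes). Fewer were called without WT replicate 2 or without Foxo1KO replicate 2.

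TGF beta pathway genes had a median of -0.28, and of -0.15 with probe sets averaged or with no filter. Of 25 tested members 11 fell and 3 rose (56% called, beside 21.8% of all genes). Id3, an inhibitor of E proteins that TGF beta and T cell receptor signals induce, went from 11.11 and 11.20 in WT to 9.03 and 8.58 in Foxo1KO (log2 -2.35, SE 0.14, adjusted p = 9.3e-06). Its relative Id2 went the other way, from 10.64 and 9.89 to 12.21 and 12.44 (log2 2.06, SE 0.21, adjusted p = 0.00013). The feedback inhibitors Smad7 (-0.78), Skil (-0.71) and Ski (-0.70) fell, as did the receptors Acvr2a (-0.74) and Bmpr2 (-0.72) and the mediator Smad5 (-0.68). The TGF beta receptor chain Tgfbr2 was lower on its brightest probe set (12.002 and 12.11 against 11.38 and 11.40, log2 -0.66, adjusted p = 0.001), a call that ended when its probe sets were averaged. Smad2, Smad3 and Tgfbr1 differed by -0.04, 0.18 and -0.16 and were not called. Tgfb3, a ligand, rose by 1.42 from a dim level (6.11 and 5.80 in WT, 7.21 and 7.54 in Foxo1KO).

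**Figure D3:**
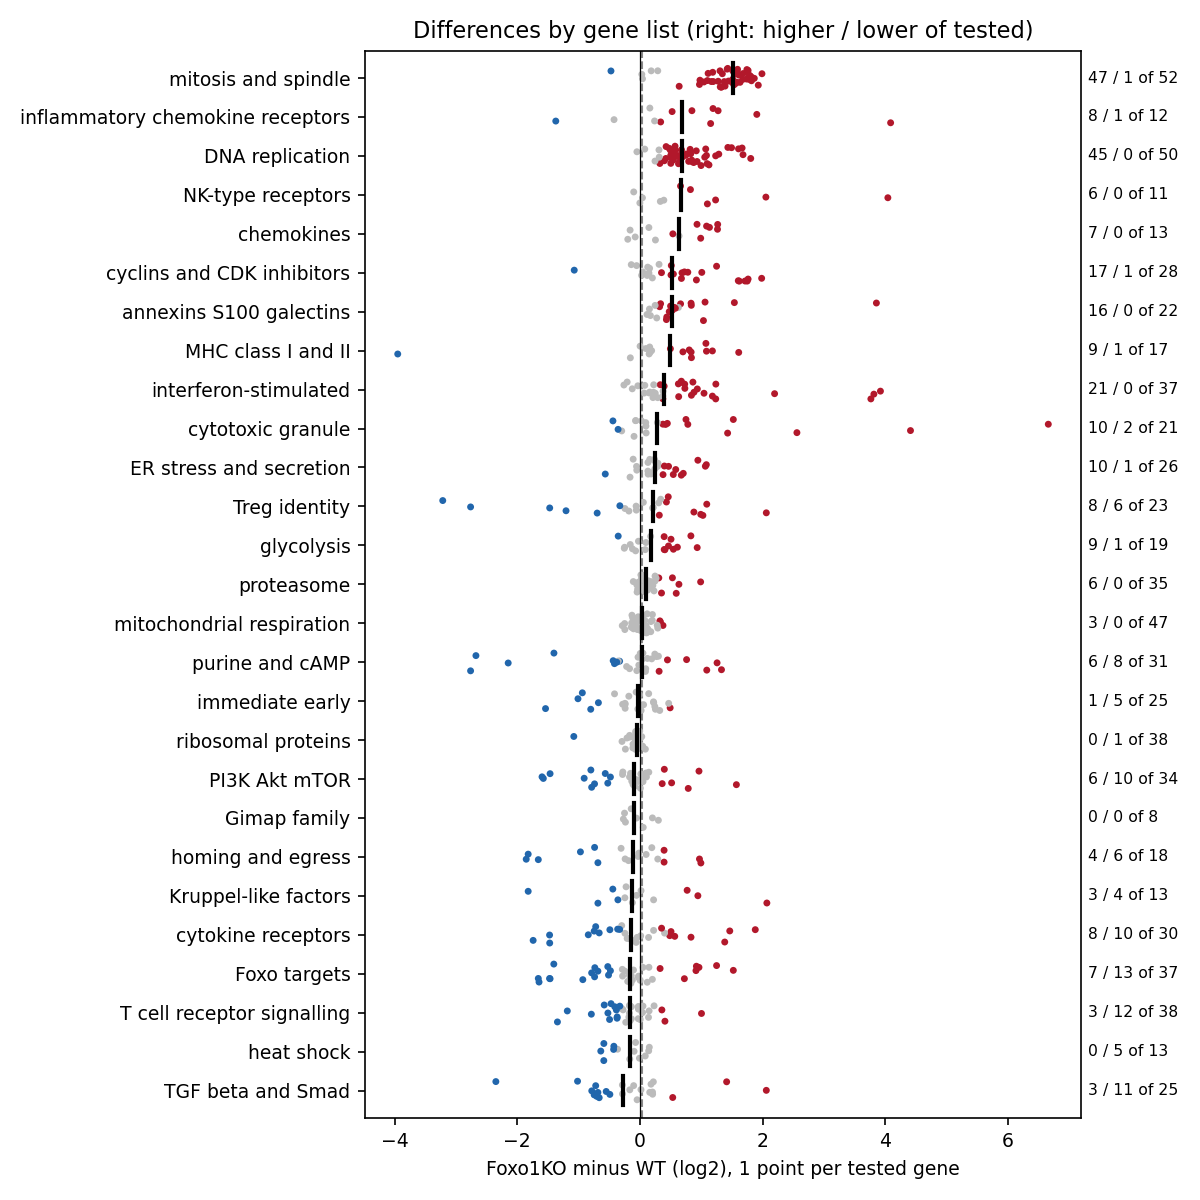
Differences between Foxo1KO and WT (x axis, log2) for the tested members of 27 gene lists (y axis, in order of their medians), red where called higher, blue where called lower and grey where not called, with black bars at the list medians and a dashed line at 0.03, the median of all tested genes. The numbers at the right count higher and lower calls: mitosis genes lie almost wholly to the right (47 of 52 higher), TGF beta genes mostly to the left, and mitochondrial and ribosomal genes crowd around 0.

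Cytokine receptors were reshuffled, with 10 lower and 8 higher of 30 tested (60% called, beside 21.8% of all genes) and a median of -0.14. Both chains of the IL-6 receptor fell: Il6ra went from 10.52 and 10.58 in WT to 8.90 and 8.72 in Foxo1KO (log2 -1.74, SE 0.10, adjusted p = 7.6e-06), and Il6st, the shared signalling chain gp130, from 10.55 and 10.84 to 9.26 and 9.19 (log2 -1.47, SE 0.12). Of the chains of the IL-12 and IL-18 receptors, whose ligands induce interferon gamma, Il12rb1 went from 8.18 and 7.95 to 9.96 and 9.94 (log2 1.88, SE 0.11, adjusted p = 6.7e-06), Il18rap from 8.88 and 8.58 to 9.98 and 10.24 (log2 1.38, SE 0.13), and Il18r1 rose by 0.83. The second IL-12 receptor chain, Il12rb2, was dim and not called (5.40 and 5.36 in WT, 5.56 and 6.00 in Foxo1KO), nor was the IL-27 receptor chain Il27ra (0.01). Il17rb, a receptor for IL-25, rose by 1.47 and the decoy receptor Il1r2 fell by 0.84. Il2ra, Il2rb and Il4ra (-0.06, 0.14 and -0.12) were not called. Of 8 tested genes of the suppressors of cytokine signalling family 3 rose, Socs3 (from 11.55 and 11.16 to 12.39 and 12.37, log2 1.02), Socs1 (0.78) and Cish (0.57), and 2 fell, Socs5 (-0.46) and Socs2 (-0.33, a call lost without any 1 of the 4 arrays).

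Cytokine genes were more often called higher than lower, with 10 up and 3 down of 22 tested (59.1% called, beside 21.8% of all genes). The filter favours members that are dim in WT and brighter in Foxo1KO. With no filter 10 of 30 rose and 3 fell, with a median of 0.22. Ifng, the interferon gamma gene, went from 7.06 and 6.78 in WT to 9.12 and 9.36 in Foxo1KO, a 5.002-fold rise (log2 2.32, SE 0.13, adjusted p = 5.5e-06). Il10, a suppressive cytokine, went from 7.87 and 7.54 to 8.54 and 8.85 (log2 0.99, SE 0.14), and Ebi3, a chain of IL-27 and IL-35, from 9.41 and 9.15 to 10.29 and 10.31 (log2 1.03, SE 0.11). Il4 was at least 2.56-fold higher, from values near the floor. Il16, a CD4 ligand made by resting lymphocytes, fell by 0.87. Il17a, Il13 and Tnf differed by 0.04, 0.26 and 0.17 and were not called. Inflammatory and suppressive cytokines were thus both found among the rises.

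Granule and killer cell genes rose strongly at their top and unevenly below. Of 21 tested members of the cytotoxic granule list 10 rose and 2 fell (57.1% called, beside 21.8% of all genes), with a median of 0.29. With no filter 10 of 25 rose and 2 fell, and the median was 0.10. Fewer members were called without Foxo1KO replicate 1. Besides Gzma, Gzmb, the granzyme B gene, went from 10.12 and 9.94 in WT to 14.41 and 14.47 in Foxo1KO, a 21.3-fold rise (log2 4.41, SE 0.10, adjusted p = 5.9e-08). Nkg7, a granule membrane protein, went from 9.98 and 9.51 to 12.18 and 12.44 (log2 2.56, SE 0.16), and Cst7, a cysteine protease inhibitor of granules, from 9.99 and 9.65 to 11.22 and 11.28 (log2 1.43, SE 0.12). Prf1, the pore-forming perforin, rose only from 6.51 and 6.52 to 6.99 and 6.94 (log2 0.45, adjusted p = 0.0078), and that call was lost without Foxo1KO replicate 1 (adjusted p = 0.051) and when its probe sets were averaged (log2 0.07), with an adjusted p from 0.007 to 0.56 over the alternatives. Of 11 tested NK-type receptors 6 rose by limma and 0 fell (also 0 at an unadjusted p under 0.05), and 11 more lay below the filter. The filter uses the mean of the 4 arrays, so a receptor dim in WT passes only where Foxo1KO is brighter. With no filter 6 of 22 rose and 0 fell, and the median was 0.09 rather than 0.66. The inhibitory receptor Klrg1 went from 11.21 and 10.98 to 13.13 and 13.17 (log2 2.06, SE 0.11), Cd160 rose by 1.10, and Klrc1 was at least 6.28-fold higher (3.94 and 4.34 in WT, 7.87 and 8.50 in Foxo1KO). Of the 3 tested markers of CD8 T and NK cells 1 was called, Eomes (log2 2.25), which T cells of other kinds also express, while Cd8a differed by 0.19 and Cd8b1 by 0.18. Ncr1 (5.51 and 5.29 in WT, 5.45 and 5.76 in Foxo1KO) and Klra8 (3.77 and 3.70 against 3.71 and 3.67) fell below the filter. The summed linear signal of the 7 CD8 T and NK cell markers was 616 and 632 in WT and 1063 and 1012 in Foxo1KO, and without Eomes it was 520 and 543 against 615 and 584. Its part in these rises was not tested.

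Costimulatory and inhibitory receptors moved in both directions, with 7 lower and 5 higher of 21 tested (57.1% called, beside 21.8% of all genes). Havcr2, the inhibitory receptor Tim-3, went from 5.70 and 5.45 in WT to 8.68 and 9.34 in Foxo1KO, at least 10.5-fold higher (log2 3.44, SE 0.19, adjusted p = 6e-06). Btla went from 12.10 and 12.13 to 10.79 and 10.84 (log2 -1.30, SE 0.09), the costimulatory receptor Cd28 from 12.09 and 12.003 to 10.88 and 10.83 (log2 -1.19, SE 0.10), Cd200 fell by 1.19 and Cd96 by 1.17. Pdcd1 and Lag3 differed by 0.27 and -0.27 and were not called. Ctla4, central to Treg suppression, was higher by 0.46 (12.67 and 12.29 in WT, 12.82 and 13.06 in Foxo1KO, adjusted p = 0.043). Its call ended without WT replicate 2 (difference 0.28), Foxo1KO replicate 1 or Foxo1KO replicate 2, and with the arrays centred. Over the list the 12 calls became 7 without WT replicate 2 or Foxo1KO replicate 2. In the SLAM family Slamf7 rose (from 6.97 and 6.74 to 8.55 and 8.81, log2 1.83) while Slamf6 (from 10.50 and 10.46 to 8.96 and 8.97, log2 -1.51) and the adaptor that binds it, Sh2d1a (-1.02), fell. Among TNF receptors Tnfrsf9, a costimulator of activated cells, rose by 1.22 and Tnfrsf25, the receptor of TL1A, fell by 1.28.

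Genes of Treg identity also split, with 8 higher and 6 lower of 23 tested (60.9% called, beside 21.8% of all genes). Fewer were called without Foxo1KO replicate 2. Besides Nrp1 and Nt5e, Plagl1, a zinc finger factor, went from 10.94 and 10.85 in WT to 9.33 and 9.51 in Foxo1KO (log2 -1.47, SE 0.10), and Gpr83, a G protein-coupled receptor of Treg cells, from 11.29 and 11.27 to 9.98 and 10.17 (log2 -1.20, SE 0.10). The folate receptor family member Izumo1r fell by 0.70. Penk, which encodes enkephalin precursors, rose from 11.47 and 11.24 to 13.36 and 13.48 (log2 2.06, SE 0.11, adjusted p = 5.1e-06). Capg, an actin capping protein, and Tnfrsf4, a costimulatory receptor, were called higher by 0.43 and 0.32, and the signalling inhibitor Socs2 lower (-0.33). The calls of Tnfrsf4 and Socs2 ended without any 1 of the 4 arrays, and that of Capg without WT replicate 2 or Foxo1KO replicate 2. Icos, Ikzf4, Tgfb1, Swap70, Dusp4 and Fgl2 differed by 0.22, -0.24, 0.21, 0.34, -0.06 and -0.18 and were not called. For the CD103 gene Itgae (12.09 and 11.26 in WT, 12.45 and 12.66 in Foxo1KO, log2 0.88, adjusted p = 0.02) the call ended without either Foxo1KO array, and the difference was 0.47 without WT replicate 2.

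Transcription factors of T cell fate were called in both directions. Of 45 tested 17 rose and 9 fell (57.8% called, beside 21.8% of all genes), with a median of 0.06. Tbx21, the T-bet gene of Th1 cells, went from 7.65 and 6.98 in WT to 9.41 and 9.68 in Foxo1KO (log2 2.23, SE 0.20, adjusted p = 5.7e-05), and Eomes, its relative, from 6.59 and 6.47 to 8.80 and 8.74 (log2 2.25, SE 0.10, adjusted p = 1.5e-06). Epas1, the hypoxia factor HIF-2 alpha, which like Arnt2 belongs to the bHLH-PAS family, went from 6.28 and 6.12 to 8.87 and 8.51 (log2 2.49, SE 0.13). Prdm1, the Blimp-1 gene of effector cells, rose by 1.27, Irf8 by 1.53 and Runx3 by 1.19. Foxp1, a forkhead factor of quiescent T cells, went from 12.22 and 12.25 to 10.68 and 10.59 (log2 -1.60, SE 0.09, adjusted p = 7.9e-06), and Bach2, a repressor of effector programmes, from 11.24 and 11.30 to 9.90 and 9.79 (log2 -1.43, SE 0.10). Sox4, which lies outside the list, went from 10.75 and 10.71 to 8.57 and 8.40 (log2 -2.24, SE 0.10). Lef1 (-0.55), a factor of naive cells, Tox (-0.78), Myc (-0.64), which drives growth, and Irf4 (-0.74), which activated cells need, fell as well, as did Pparg (-0.81, and -0.51 without Foxo1KO replicate 2), and Myb rose by 0.84. In contrast Gata3, Bcl6 and Ikzf1 differed by 0.15, -0.15 and -0.09 and were not called. Of 13 Kruppel-like factors 3 rose and 4 fell (53.8% called, beside 21.8% of all genes). Klf12 rose (from 7.02 and 6.36 to 8.70 and 8.82, log2 2.07), as did the TGF beta inducible repressors Klf10 (0.77) and Klf11 (0.95). Besides Klf2 and Klf3, Klf9 (-0.44) and Klf13 (-0.36) were called lower, with the call of Klf9 lost without WT replicate 2 or Foxo1KO replicate 1, and that of Klf13 without any 1 of the 4 arrays.

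Components of T cell receptor signalling were mostly lower where called, with 12 down and 3 up of 38 tested. That was 39.5% called, beside 21.8% of all genes, with a median of -0.16. The 15 calls became 9 without WT replicate 1 and 7 without Foxo1KO replicate 1, so the smaller ones rest on few arrays. Dgka, the diacylglycerol kinase that dampens Ras signalling, went from 12.35 and 12.55 in WT to 11.003 and 11.20 in Foxo1KO (log2 -1.34, SE 0.11), and Ubash3b, a phosphatase that restrains the receptor, from 10.83 and 10.84 to 9.66 and 9.64 (log2 -1.18, SE 0.09). Pag1, an adaptor that recruits the inhibitory kinase Csk, rose from 11.80 and 11.68 to 12.68 and 12.81 (log2 1.00, SE 0.10). Zap70, Lat and Cd3e, at the core of the pathway, differed by -0.02, 0.14 and -0.18 and were not called. Among immediate early genes, which receptor signals induce within minutes, 5 of 25 fell and 1 rose, a share (24%) close to the 21.8% of all genes. The 5 are Dusp6, a phosphatase of ERK (from 10.10 and 10.12 to 8.76 and 8.39, log2 -1.54, SE 0.13), the factors Egr2 (-1.01), Egr3 (-0.94) and Egr1 (-0.68), and Btg2 (-0.80). Fos and Jun, the chains of AP-1, differed by -0.41 and 0.47, and Nr4a1, Ier2 and Dusp5 by -0.03, -0.01 and 0.02, and none of these 5 was called.

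Genes of glycan synthesis moved far in both directions, with 10 higher and 8 lower of 32 tested (56.2% called, beside 21.8% of all genes). Of 14 tested sialyltransferases 4 fell and 3 rose. Besides St8sia6, St6galnac3 went from 8.77 and 8.55 in WT to 6.86 and 6.88 in Foxo1KO (log2 -1.79, SE 0.11), St8sia1 from 9.25 and 9.12 to 7.81 and 7.91 (log2 -1.32, SE 0.10), and St6gal1, which adds terminal alpha-linked sialic acid, fell by 0.78. St3gal2 went from 9.01 and 8.90 to 9.76 and 9.80 (log2 0.83, adjusted p = 0.00029), St3gal4 rose by 0.55, and St6galnac6 was called higher by 0.37, a call that was lost without WT replicate 1 or either Foxo1KO array. Among other enzymes Gcnt1, which branches O-glycans, went from 8.79 and 8.15 to 10.67 and 10.80 (log2 2.26, SE 0.18, adjusted p = 3.3e-05), and Fut7, which adds the fucose of sialyl Lewis X, from 7.35 and 7.38 to 8.46 and 8.63 (log2 1.18, SE 0.10). B4galt5 rose by 1.31 and the O-glycan initiating enzyme Galnt3 by 1.65. St3gal1, St3gal6, St8sia4 and B4galt1 differed by 0.11, 0.03, 0.10 and -0.16 and were not called.

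Annexins, S100 proteins and galectins, which are abundant in effector cells, were called only upward by limma, with 16 of 22 higher, 0 lower (also 0 at an unadjusted p under 0.05) and a median of 0.52. Without Foxo1KO replicate 2 the number of calls was 10. Next to Anxa1, the calcium-binding S100a6 went from 12.44 and 12.12 in WT to 13.39 and 13.24 in Foxo1KO (log2 1.04, SE 0.12), S100a4 from 13.04 and 12.63 to 13.66 and 13.68 (log2 0.83, SE 0.13), and Lgals1, which is already bright in WT, from 13.47 and 13.53 to 14.33 and 14.35 (log2 0.84, SE 0.09). Lgals3 rose by 1.54, Anxa4 by 1.06 and the intermediate filament gene Vim by 0.56. In all of these both Foxo1KO arrays lay above both WT arrays.

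The cell cycle showed the most uniform change. Of 52 tested genes of mitosis and the spindle 47 rose and 1 fell (92.3% called), with a median of 1.51. Of 50 DNA replication genes 45 rose and 0 fell by limma (also 0 at an unadjusted p under 0.05), with a median of 0.69. That was 90% called, beside 21.8% of all genes. Mki67, the Ki-67 gene of cycling cells, went from 11.16 and 11.003 in WT to 12.58 and 12.61 in Foxo1KO (log2 1.52, SE 0.10, adjusted p = 1.4e-05). Birc5, of the chromosomal passenger complex, went from 9.45 and 9.07 to 11.18 and 11.21 (log2 1.93, SE 0.13), and the kinetochore gene Nuf2 from 8.13 and 7.60 to 9.83 and 9.88 (log2 1.99, SE 0.16). The exception was Smc4, a condensin subunit, which fell from 13.39 and 13.44 to 12.95 and 12.94 (log2 -0.47, SE 0.09, adjusted p = 0.0061). For replication, the ribonucleotide reductase subunit Rrm2 went from 11.43 and 10.98 to 13.02 and 13.003 (log2 1.81, SE 0.14), the origin licensing factor Cdc6 rose by 1.67 and Uhrf1, which keeps DNA methylation through replication, by 1.68. In Mki67, Birc5, Nuf2 and Rrm2 WT replicate 1 read above WT replicate 2, while the Foxo1KO arrays were nearly equal.

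Among 28 cyclins, CDK inhibitors, E2F and pocket proteins 17 rose and 1 fell (64.3% called, beside 21.8% of all genes). With probe sets averaged 16 of 29 rose and 2 fell. Ccne2, a cyclin that starts S phase, went from 8.18 and 7.58 in WT to 9.43 and 9.54 in Foxo1KO (log2 1.60, SE 0.17), and the late-cycle repressors E2f7 (1.75) and E2f8 (1.99) rose with it. Inhibitors moved unlike each other: Cdkn2c, which blocks the kinases of D-type cyclins, went from 9.43 and 9.01 to 10.93 and 10.94 (log2 1.72, SE 0.13), while Cdkn1c fell from 7.81 and 7.94 to 7.04 and 6.58 (log2 -1.07, SE 0.15), and Cdkn1b, a classic Foxo target, differed by 0.20 and was not called. The D-type cyclins Ccnd2 and Ccnd1, which signals rather than the cycle itself control, differed by -0.14 and 0.12 and were not called either. The remaining D-type cyclin, Ccnd3, was called higher on its brightest probe set (0.78) and lower on the second (-1.16).

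The wide change did not extend evenly to basic cell machinery. Of 38 ribosomal protein genes 1 was called (2.63%), and of 47 mitochondrial respiration genes 3 (6.38%, and 0 with the replicate block), beside 21.8% of all genes. Of 35 proteasome genes 6 were called, all higher. That share (17.1%) is near the share of all genes, and with an intensity trend 8 were called. The ribosomal call was Rpl12, from 9.52 and 9.57 in WT to 8.50 and 8.43 in Foxo1KO (log2 -1.08, SE 0.09, adjusted p = 5.6e-05). The proteasome calls include the interferon-inducible subunits Psmb9 (from 11.23 and 11.15 to 12.14 and 12.22, log2 0.99), Psmb10 (0.64) and Psmb8 (0.53). Of 8 tested genes of the Gimap family of lymphocyte GTPases limma called 0, with 1 higher and 1 lower at an unadjusted p under 0.05. Glycolysis differed from these, with 9 higher and 1 lower of 19 (52.6% called). Tpi1, the triosephosphate isomerase, went from 10.33 and 10.14 to 11.11 and 11.23 (log2 0.94, SE 0.11). The phosphofructokinase gene Pfkp rose by 0.83, while the glucose transporters Slc2a1 and Slc2a3 were not called (-0.25 each). The 10 glycolysis calls became 5 without WT replicate 2 or Foxo1KO replicate 2. Of 26 genes of the endoplasmic reticulum stress response and secretion 10 rose and 1 fell (42.3% called). The rises include Sdf2l1 (1.08), the sensor kinase Ern1 (1.07) and the secreted factor Manf (0.71).

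Regulators of cell death were called on both sides. In the Bcl2 family 2 of 16 fell and 2 rose, 25% against 21.8% of all genes. Bcl2, which protects cells, went from 12.19 and 12.35 in WT to 10.71 and 10.80 in Foxo1KO (log2 -1.51, SE 0.10, adjusted p = 1.6e-05), a fall of the same order as that of its antagonist Bcl2l11. The death-promoting Pmaip1, the Noxa gene (from 8.93 and 8.68 to 9.85 and 10.04, log2 1.14, SE 0.12), and the pore former Bak1 (0.81) rose, and Mcl1 differed by -0.07 and was not called. Among caspases and death receptors the inflammatory caspases stood out, with Casp1 going from 8.77 and 8.29 to 10.43 and 10.59 (log2 1.98, SE 0.15) and Casp4 from 8.81 and 8.40 to 9.82 and 9.99 (log2 1.30, SE 0.14). Casp8, the initiator caspase of death receptors, differed by -0.35 and Casp9 by -0.13, and neither was called. In that list 8 of 22 rose and 1 fell (40.9% called). Fewer were called without WT replicate 2 or Foxo1KO replicate 1.

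Interferon-stimulated genes were called only upward by limma, with 21 of 37 higher (56.8% called, beside 21.8% of all genes). The number lower was 0 (1 at an unadjusted p under 0.05), and the median was 0.40. The membrane proteins that block virus entry led them: Ifitm1 went from 7.17 and 7.28 in WT to 10.99 and 11.09 in Foxo1KO (14.1-fold, log2 3.82, SE 0.10, adjusted p = 9.9e-08), Ifitm2 from 6.13 and 6.08 to 9.90 and 10.15 (log2 3.92, SE 0.11), and Ifitm3 from 7.06 and 6.82 to 10.63 and 10.78 (log2 3.77, SE 0.11). These 3 genes are close relatives, and probes of one can read another. The GTPase Iigp1, induced by interferon gamma, went from 11.04 and 10.90 to 13.12 and 13.22 (log2 2.20, SE 0.10), and the tetherin gene Bst2 and Mx1 rose by 1.24 each. Ifit1, Ifit2, Irf7, Irf9 and Stat2, genes of the type I interferon response as Mx1 and Bst2 are, differed by -0.03, -0.21, 0.29, 0.16 and 0.23 and were not called.

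Antigen presentation genes and markers of other cells moved partly with 1 array. H2-Ob, a chain of the class II modifier H2-O, went from 8.96 and 9.06 in WT to 5.50 and 4.62 in Foxo1KO, at least 11.1-fold lower (adjusted p = 7.6e-06). The class II genes H2-Aa (8.40 and 8.90 in WT, 10.89 and 9.63 in Foxo1KO, adjusted p = 0.008) and H2-Ab1 (7.49 and 7.59 against 9.27 and 7.98, adjusted p = 0.039) were higher, most of all on Foxo1KO replicate 1. Without that array their differences were 0.98 and 0.44, and the call of H2-Ab1 ended. Both calls also ended with a robust prior. Jchain, the joining chain of plasma cell antibodies, was at least 8.78-fold higher (5.35 and 5.62 in WT, 9.24 and 8.18 in Foxo1KO, adjusted p = 4.9e-05), and Lyz1, a lysozyme gene, was higher by 1.31 (7.98 and 7.91 in WT, 9.62 and 8.90 in Foxo1KO). The B cell gene Ms4a1 was not called (6.52 and 7.23 in WT, 8.32 and 6.25 in Foxo1KO), nor were Cd79a (-0.02), the plasma cell marker Sdc1 (0.07), the myeloid receptor Csf1r (0.17) or the dendritic cell markers Flt3 (0.15), Zbtb46 (0.10) and Siglech (-0.02). Also not called were Cd79b (0.27) and Pax5 (-0.03) of B cells, Cd14 (-0.05), Adgre1 (0.29) and S100a9 (0.63) of myeloid cells, Alas2 (0.27) of erythroid cells, Sox13 (0.18) and Blk (0.26) of gamma delta T cells and Col1a1 (0.31) of stroma. The lysozyme gene Lyz2 (7.21 and 7.30 in WT, 8.52 and 7.82 in Foxo1KO, log2 0.92, and 0.57 without Foxo1KO replicate 1), the collagen gene Col1a2 (6.40 and 6.46 against 7.02 and 6.89, log2 0.52) and the secretory factor Xbp1 (log2 0.38) were called higher, the last only with WT replicate 2 and both Foxo1KO arrays kept. Cd4 was called lower (9.67 and 9.68 in WT, 9.32 and 9.28 in Foxo1KO, log2 -0.37), a call that ended without any 1 of the 4 arrays. The myeloid genes Itgam (4.40 and 4.60 in WT, 4.87 and 4.88 in Foxo1KO) and S100a8 (4.72 and 4.73 against 6.51 and 4.85) fell below the filter.

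Over whole marker lists the summed linear signal of the 13 dendritic cell markers was 2116 and 2391 in WT and 5204 and 3544 in Foxo1KO, and 7 of 12 tested members were called higher, most of them class II genes, with 4 left without Foxo1KO replicate 1. The 19 myeloid markers summed to 2456 and 2808 in WT and 4438 and 3305 in Foxo1KO, with 3 of 17 called higher. The 7 plasma cell markers summed to 4805 and 4577 against 6975 and 7096, with 4 of 6 called higher (2 without Foxo1KO replicate 1), and the 11 B cell markers to 6765 and 7663 against 6193 and 4600, with 1 of 10 called in each direction. The lower B cell call was Ighm (log2 -0.665 on its brightest probe set). Of its 8 probe sets above the floor 5 were called higher and 2 lower, so it gives no direction. With probe sets averaged 2 of 9 B cell markers were called higher and 0 lower. In the main fit the shares called were 58.3% of dendritic cell, 17.6% of myeloid, 66.7% of plasma cell and 20% of B cell markers. The myeloid and B cell shares were thus not above the 21.8% of all genes. The dendritic and myeloid sums were highest on Foxo1KO replicate 1. These sums hold the genes reported above, which were left out in turn after the values were seen. Without H2-Aa, H2-Ab1, H2-Eb1 and the invariant chain gene Cd74 the dendritic cell sum was 1324 and 1380 against 1865 and 1951, without Jchain the plasma cell sum was 4764 and 4528 against 6370 and 6806, and without Lyz1 and Lyz2 the myeloid sum was 2055 and 2410 against 3284 and 2601. The part of such cells in the rises was not tested. The 10 conventional CD4 T cell markers summed to 11995 and 12833 in WT and 9774 and 9952 in Foxo1KO. Of 9 tested 4 were called lower and 1 higher (55.6% called).

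Promoter sequences were set beside these changes, because Foxo factors bind the forkhead motif GTAAACA. Shares were counted on both strands over 250 bases before to 50 bases after each start, from RefSeq promoters of the assembly GRCm38.p6. The motif was in 3.54% of 226 promoters of genes lower at least 2-fold (8 promoters) and in 5.19% of 366 promoters of genes higher at least 2-fold (19), beside 2.78% for all tested genes and 3.65% for all promoters in the table. For called genes of any size the shares were 2.04% (lower) and 3.0% (higher). A match is a run of letters and not a bound site, and binding far from the start is not seen in this window. The promoters of Dapl1, a gene of naive T cells that was at least 5.66-fold lower (8.06 and 8.67 in WT, 6.20 and 5.46 in Foxo1KO), and of Bcl2l11 are shown as 2 lower genes that hold the motif, in capitals, with 250 bases before the start on the gene's strand (Dapl1 at chr2:59484403-59484652, plus strand; Bcl2l11 at chr2:128125788-128126037, plus strand).
Dapl1: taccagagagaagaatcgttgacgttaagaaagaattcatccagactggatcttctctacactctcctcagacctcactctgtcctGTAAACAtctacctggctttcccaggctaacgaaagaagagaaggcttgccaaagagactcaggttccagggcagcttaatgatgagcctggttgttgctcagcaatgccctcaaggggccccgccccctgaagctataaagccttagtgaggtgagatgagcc
Bcl2l11: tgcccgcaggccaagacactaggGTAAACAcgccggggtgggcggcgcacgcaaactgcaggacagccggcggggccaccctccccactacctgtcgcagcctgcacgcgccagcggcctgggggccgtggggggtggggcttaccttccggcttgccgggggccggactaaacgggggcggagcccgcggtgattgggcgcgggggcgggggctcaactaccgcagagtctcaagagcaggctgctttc
The motif begins 164 bases before the start in Dapl1 and 227 bases before it in Bcl2l11.

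The lists that moved together shared other letters. The core of interferon response elements, a pair of GAAA letters spaced by any 2 bases, was in 44.1% of 34 promoters of the interferon-stimulated list, beside 3.44% of all promoters. The promoters of Ifitm2 (chr7:140955962-140956211, minus strand) and Bst2 (chr8:71537473-71537722, minus strand) show it in capitals on the gene's strand, 46 bases before the start in Ifitm2 and as 2 overlapping copies in Bst2.
Ifitm2: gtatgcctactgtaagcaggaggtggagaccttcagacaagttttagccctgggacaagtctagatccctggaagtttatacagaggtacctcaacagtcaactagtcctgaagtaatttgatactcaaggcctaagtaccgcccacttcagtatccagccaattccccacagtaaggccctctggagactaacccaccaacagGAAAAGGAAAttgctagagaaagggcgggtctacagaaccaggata
Bst2: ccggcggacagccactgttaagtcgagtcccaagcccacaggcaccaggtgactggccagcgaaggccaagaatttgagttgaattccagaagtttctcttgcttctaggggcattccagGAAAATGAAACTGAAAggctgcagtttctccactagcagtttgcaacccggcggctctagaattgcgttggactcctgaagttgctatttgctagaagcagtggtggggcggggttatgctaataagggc
Mitosis genes differed again: TTTGAA, the cell cycle homology region that the DREAM complex reads, was in 71.4% of 49 promoters of the mitosis list against 17.9% of all promoters, and CCAAT, the NF-Y box, in 73.5% against 37.4%. Replication promoters held CCAAT in 60.8% and TTTGAA in 13.7%. The promoters of Kif11, a spindle motor (chr19:37376132-37376381, plus strand), and Cdk1, the mitotic kinase (chr10:69352913-69353162, minus strand), both higher by 1.82, show TTTGAA or its reverse complement in capitals, 19 bases before the start in Kif11 and at 15 and 71 bases before it in Cdk1.
Kif11: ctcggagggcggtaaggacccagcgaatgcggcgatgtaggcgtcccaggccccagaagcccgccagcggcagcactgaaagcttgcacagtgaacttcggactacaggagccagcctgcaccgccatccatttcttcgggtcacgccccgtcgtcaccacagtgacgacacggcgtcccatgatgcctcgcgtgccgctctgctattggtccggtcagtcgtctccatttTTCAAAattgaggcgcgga
Cdk1: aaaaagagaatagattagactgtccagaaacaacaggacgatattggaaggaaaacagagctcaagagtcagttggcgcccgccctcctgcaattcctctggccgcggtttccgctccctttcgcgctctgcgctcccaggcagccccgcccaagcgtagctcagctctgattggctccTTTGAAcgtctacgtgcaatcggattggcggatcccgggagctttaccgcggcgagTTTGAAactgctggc
These shares describe which letters the lists hold. They were not tested, and some members of such lists are known targets of these elements.

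Several probe sets per gene gave a check on the direction of calls. The calls counted in this check are those of the fit to all 45037 probe sets, not those of the gene fit. Of 283 genes called at least 2-fold that had a second probe set above the floor, the second read the same direction in 272 (96.1%) and was itself called that way in 219 (77.4%). Over all 1257 such called genes the shares were 91.6% and 56.5%, and 4 were called in the opposite direction. In 16 genes probe sets were called both ways. Ccnd3, a D-type cyclin, differed by 0.78 on its brightest probe set and by -1.16 on the second, and Hivep3, a zinc finger factor, was lower by 1.68 on the brightest and higher by 0.42 on the second. For such genes no direction of the gene as a whole can be given.

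Probe sets outside the gene annotation told a different story from the genes. Over all 45037 probe sets 6220 were called (13.8%), of which 2441 were higher and 3779 lower. Among the 9160 with no gene listed 1266 were called (13.8%), and 1097 of these were lower against 169 higher. The tilt was steepest at mean levels from 7 to 9: of 1456 such probe sets 528 were lower (36.3%) and 40 higher (2.75%), with a median difference of -0.25. Medians were below 0 for each pairing of a Foxo1KO with a WT array (-0.31, -0.25, -0.23 and -0.19). These pairings share arrays. At the same levels the 4431 brightest probe sets of genes were even, with 492 lower, 495 higher and a median of 0.01, and the 4062 further probe sets of genes lay between, with 669 lower, 306 higher and a median of -0.06. These bands were chosen after the values were seen. What the unlisted probe sets match was not analysed here. For the RNA controls the 3′ minus 5′ difference of actin was 0.70 and 0.73 in WT and 0.76 and 0.76 in Foxo1KO, that of Gapdh 0.48 and 0.65 against 0.42 and 0.32. The middle part of the 18S ribosomal RNA control read 11.20 and 11.71 in WT and 12.51 and 11.60 in Foxo1KO, and its 3′ part 11.45 and 12.04 against 12.44 and 11.79, highest on Foxo1KO replicate 1. The part of RNA quality in the tilt was not tested.

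**Figure D4:**
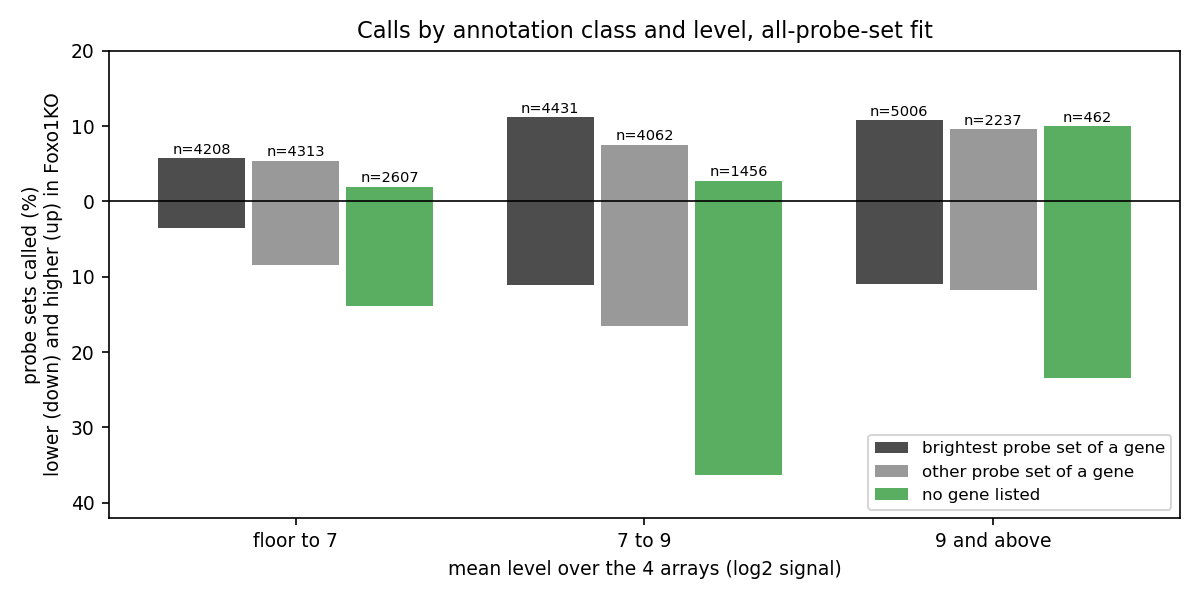
Share of probe sets called higher (upward bars) and lower (downward bars) in Foxo1KO, in percent, by mean level (x axis, log2 signal, starting from the floor of 5.53) and by annotation class, with the number of probe sets above each bar. Probe sets with no gene listed were mostly called lower, 36.3% at levels from 7 to 9, while the brightest probe sets of genes were balanced at 11.1% lower and 11.2% higher.

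By position, the called genes were spread over the genome. The share called ran from 19.7% of tested genes on chromosomes 7 and 11 to 26.4% on chromosome 13, and was 24.3% on chromosome 3, which carries Foxo1. Of the 40 tested genes nearest to Foxo1, 20 on each side, 7 were called (17.5%), 3 higher and 4 lower, below the 21.8% of all genes. The closest ones nevertheless held large differences. Mgst2, a microsomal glutathione transferase and the first tested gene on one side, went from 11.42 and 11.49 in WT to 10.19 and 10.12 in Foxo1KO (log2 -1.30, SE 0.09, adjusted p = 2.1e-05). On the other side Gm30173, the second tested gene, was below the floor in WT (5.07 and 5.10) and at 6.44 and 6.70 in Foxo1KO, at least 2.05-fold higher, and Lhfp, the fourth, went from 6.17 and 6.40 to 8.20 and 7.89 (log2 1.76, SE 0.13, adjusted p = 2.3e-05). These 3 genes were singled out after their values were seen.

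**Figure D5:**
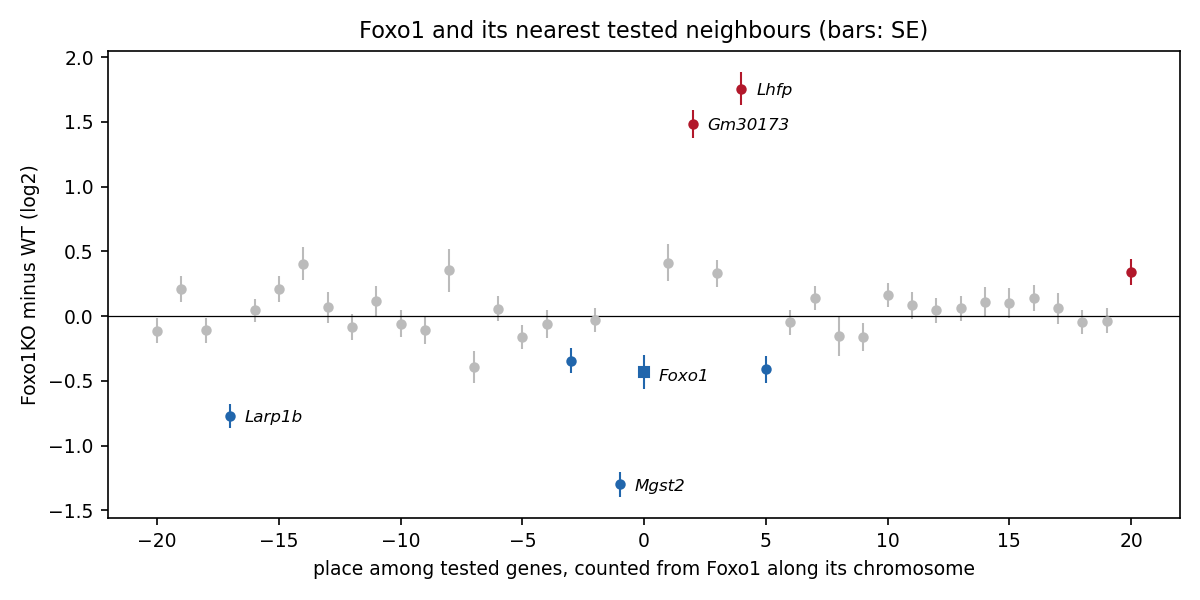
Difference between Foxo1KO and WT (y axis, log2, bars show the SE) for Foxo1 (square, at place 0) and its 40 nearest tested neighbours in chromosomal order (x axis, place counted from Foxo1), red where called higher, blue where called lower and grey where not called. Lhfp (1.76), Gm30173 (1.49) and Mgst2 (-1.30), all within 4 places of Foxo1, lie farther from 0 than the other neighbours shown.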

How the data were processed

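Total RNA was labelled with biotin and hybridised to Affymetrix arrays, per the labels' protocols. The deposited log2 values were made with RMA, and the submitters' processing notes also name R 2.15 and limma 3.12.1. Background correction and normalization thus precede everything here, and scanner files were not used. The values were taken as deposited, with no further scaling. Of 45101 probe sets 64 controls were left out. Of the rest, 34945 carried 1 gene symbol in the platform annotation, 932 several and 9160 none, and only the first kind was named.

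Each of 18193 genes was read on its brightest probe set (by the mean of the 4 arrays), and the lowest 25% by that mean were left out, which left 13645. WT and Foxo1KO were compared with limma 3.58.1 in R 4.3.3 (lmFit and eBayes, two-sided, Benjamini-Hochberg, adjusted p under 0.05), with 2 residual degrees of freedom and 6.88 from the prior. A second fit took all 45037 probe sets that are not controls. The procedure was tested on simulated data.

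The comparison and the 54 gene lists were chosen with earlier results of these data known. They hold 1439 entries, of which 125 had no probe set listed and were not analysed here. Genes were named by rule: the 20 largest rises and falls, the 10 largest among bright genes, up to 5 called members in each direction of a list, the Foxo family, every tested member of the lists of Treg identity, Foxo targets and homing, cell type markers, and the 5 called genes with the widest gaps between replicates. Genes named as not called outside that rule were chosen after their values were seen. Promoters are from RefSeq. Alternatives changed the filter, the probe set rule, the prior, the scaling, the block and the arrays kept. Python 3.11.15 with pandas 2.3.3 and matplotlib 3.10.9 made the tables and figures. The number of arrays limits the precision.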

Additional observations from a re-analysis of the deposited data

How the results depend on the processing

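Under the alternatives other than the crossed pairing and those without 1 array, the number of called genes, 2974 in the main fit, varied. It ran from 2463 with every probe set tested to 3435 with an intensity trend and a robust prior. It was 2939 with no filter, 2850 with the lowest 50% left out, 3062 with probe sets averaged and 2947 with each array centred on its median. Fitting all 6 arrays gave 2974 as it had to, because the 2 lone arrays add no residual degrees of freedom. That fit is therefore no check on the count. Without 1 array the called genes numbered 2016 to 2374, the higher 985 (without Foxo1KO replicate 2) to 1339 and the lower 873 (without Foxo1KO replicate 1) to 1156. Replicate 1 and replicate 2 differed in Eif2s3y and Xist the same way in both groups, but the labels tie the numbers to no shared litter or day, and over all genes same-numbered arrays did not deviate together (correlation -0.135), so the fit without a block was kept. With the replicate block 2495 genes (1298 higher, 1197 lower) and 4854 rather than 6220 probe sets were called. With the crossed pairing, chosen after seeing the data, 4099 genes were called. Of the 580 calls of at least 2-fold, 570 kept their call in all alternatives run. The share of promoters with GTAAACA among higher genes was 5.19% for calls of at least 2-fold and 3% for calls of any size. Genes whose difference changed sign were not called, except Ccnd3, and the cause was not tested. With probe sets averaged these were Akt2 0.029, Casp9 0.080, Ccnd3 -0.055, Foxo3 -0.040, Foxo4 0.10, Ikzf2 -0.17, Il2ra 0.080, Mtor 0.027, Pink1 -0.082, Sesn2 0.082, St3gal1 -0.015, St3gal6 -0.22 and Xist -0.012. With centred arrays they were Dusp5 -0.008, Foxo3 -0.009, Il27ra -0.015, Pink1 -0.023 and St3gal6 -0.002. The ranges over the fits without 1 array that crossed 0 were Casp9 -0.29 to 0.028, Cat -0.23 to 0.022, Cd14 -0.12 to 0.010, Cd79a -0.16 to 0.12, Cdkn1b -0.054 to 0.46, Csf1r -0.13 to 0.47, Dusp4 -0.18 to 0.060, Dusp5 -0.063 to 0.10, Eif2s3y -3.11 to 3.07, Fgl2 -0.42 to 0.058, Foxo3 -0.084 to 0.12, Foxo4 -0.18 to 0.070, Gabarapl1 -0.10 to 0.062, Ier2 -0.079 to 0.059, Ifit1 -0.14 to 0.079, Il17a -0.053 to 0.14, Il27ra -0.034 to 0.060, Il2ra -0.21 to 0.089, Ms4a1 -0.62 to 1.45, Nr4a1 -0.086 to 0.020, P2ry10 -0.14 to 0.11, Pax5 -0.18 to 0.11, Pde4a -0.013 to 0.11, Pik3ca -0.14 to 0.44, Pink1 -0.11 to 0.12, Selplg -0.099 to 0.044, Sesn2 -0.15 to 0.11, Siglech -0.26 to 0.23, Smad2 -0.11 to 0.016, St3gal6 -0.19 to 0.24, Tnf -0.025 to 0.35, Trib1 -0.030 to 0.13, Xist -0.56 to 0.83 and Zap70 -0.061 to 0.014. With 2 arrays in each group, the small number of arrays limits the precision, and 1567 of the 2974 calls remained when any 1 array was left out. Dim probe sets have only a bound on their fold.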
